A study of Homo sapiens with 8 samples.

Results

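STC1 and STC2 encode the stanniocalcins, a pair of secreted glycoprotein hormones, and both were examined on every array of a Polycomb knockdown experiment, 2 genes of the 14884 that could be named and tested. They were chosen by name, with their values in these samples already known, to ask whether each followed a different hairpin. The levels and differences of these 2 genes are therefore given as a description, with no test. Total RNA was hybridised to 8 whole-transcript expression arrays. The cell line field reads SCC13, an established squamous carcinoma line from human skin, for every sample. There were 4 groups of 2 arrays, each with its own short hairpin RNA. The hairpins were shRING1B and shBMI1, aimed at proteins of Polycomb repressive complex 1, shEZH2, aimed at the histone methyltransferase of Polycomb repressive complex 2, and shGFP, the control, aimed at a jellyfish protein. All groups thus carried a hairpin, and no untreated cells were analysed here. The labels do not say how the hairpins were delivered, whether cells were pooled or cloned, or whether replicate arrays stand for separate cultures, so the errors and p-values may reflect technical spread alone. Both shEZH2 titles start with SCCL3, whereas the other 6 start with SCC13. An effect of another line or batch behind that title and an effect of the shEZH2 hairpin cannot be told apart.

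Stanniocalcin was first known from fish, where it is made by the corpuscles of Stannius and restrains calcium uptake. In mammals both stanniocalcins are made in many tissues and act locally. Each binds and inhibits PAPP-A, a secreted metalloproteinase that cleaves IGF-binding proteins and so frees insulin-like growth factor. Both genes are known to be induced by low oxygen, and STC2 is also a target of the stress transcription factor ATF4. Polycomb complexes keep genes silent through marks on histones.

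Levels are log2 expression values after RMA, an array normalization, so a difference of 1 is a doubling of the signal. EZH2 was 0.91 ± 0.12 (SE) lower on the log2 scale with shEZH2 than with shGFP (limma adjusted p = 0.0183). This call was lost without either shEZH2 array and without either shGFP array. BMI1 and RNF2, which encodes RING1B, have no named probe set here, so their knockdown was not checked. Gene values of the 2 arrays of a hairpin correlated at 0.995 to 0.996, and those of the shEZH2 arrays correlated with other hairpins at 0.992 to 0.993. The highest correlation between arrays of different hairpins was 0.996, and it lay between hairpins other than shEZH2. Of 15 keratinocyte markers, 6 were measured, and their mean log2 level lay between 9.76 and 9.78 with shRING1B, 9.95 and 9.99 with shEZH2, 9.91 and 9.96 with shBMI1, and 10 and 10.01 with shGFP. The shRING1B arrays were thus lowest, and the shRING1B, shEZH2 and shBMI1 arrays all lay below the shGFP arrays. Of the 6 differences from shGFP, 1 was positive with shRING1B and 2 each with shEZH2 and shBMI1. With shRING1B the basal keratin KRT14 was at -0.50 ± 0.13 and the desmosomal cadherin DSG3 at -0.58 ± 0.13, without passing (limma adjusted p = 0.347 and 0.31). With shEZH2 they were at -0.57 ± 0.13 and 0.43 ± 0.13, and with shBMI1 at -0.29 ± 0.13 and -0.48 ± 0.13, also without passing. Both were named after their values were seen, and the part of these shifts in the STC1 and STC2 values was not tested.

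STC1, measured by 1 probe set, was high with the RING1B and the EZH2 hairpin. An array averages over all cells of a culture, so more cells making STC1 and more STC1 RNA per cell cannot be told apart, and the same holds for STC2. Its level was 8.43 and 8.26 on the shRING1B arrays, 8.19 and 8.16 on the shEZH2 arrays, 7.52 and 7.67 on the shBMI1 arrays, and 7.39 and 7.43 on the shGFP arrays. All 4 arrays with shRING1B or shEZH2 lay above all 4 with shBMI1 or shGFP, and no pair of hairpins overlapped. The means were 8.34 ± 0.12 with shRING1B, 8.18 ± 0.02 with shEZH2, 7.59 ± 0.11 with shBMI1 and 7.41 ± 0.03 with shGFP (SD, n = 2 each). Going down this order, the steps between neighbouring means were 0.17, 0.58 and 0.19. The steps from shRING1B to shEZH2 and from shBMI1 to shGFP were close to the gap of 0.17 between the 2 shRING1B arrays and of 0.16 between the 2 shBMI1 arrays. The step in the middle was larger than any replicate gap of this gene.

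**Figure D1:**
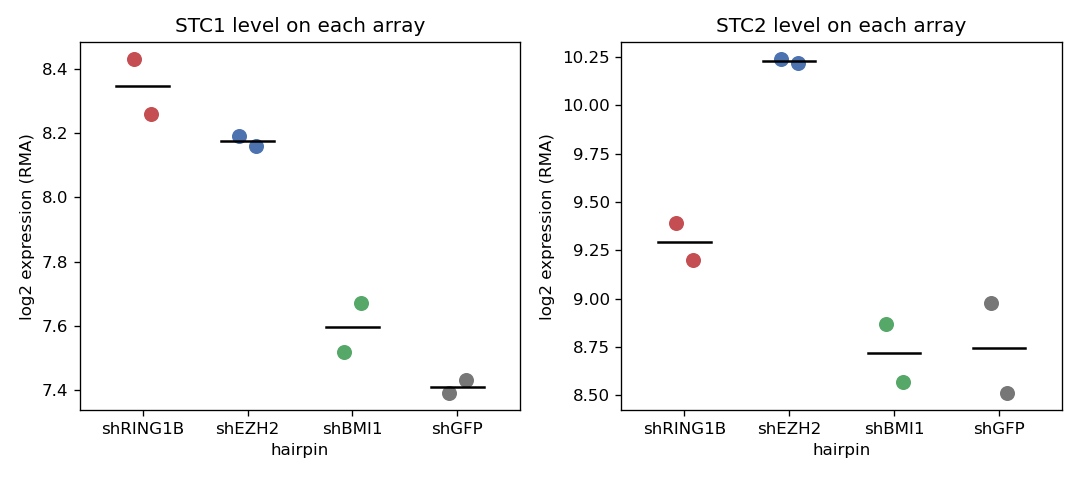
Levels of STC1 (left) and STC2 (right) as log2 expression after RMA, 1 point per array, with the hairpins on the horizontal axis and a line at each mean of 2 arrays. STC1 lies at 8.16 or above on the 4 arrays with shRING1B or shEZH2 and at 7.67 or below on the other 4. STC2 lies at 10.24 and 10.22 with shEZH2, at 9.39 and 9.2 with shRING1B, and at 8.98 or below on the other 4.

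Against shGFP, STC1 was 0.94 ± 0.10 log2 units higher with shRING1B (SE of the fit over all genes, n = 2 each), or 1.91-fold. It was 0.77 ± 0.10 higher with shEZH2, or 1.71-fold, and 0.19 ± 0.10 higher with shBMI1, or 1.14-fold. These 3 differences share the same 2 shGFP arrays. By size of increase among the 14884 genes, STC1 stood at place 10 with shRING1B, place 76 with shEZH2 and place 1303 with shBMI1. Between knockdowns, STC1 was 0.75 ± 0.10 higher with shRING1B than with shBMI1 and 0.58 ± 0.10 higher with shEZH2 than with shBMI1. The difference between shRING1B and shEZH2 was 0.17 ± 0.10, and it was 0.08 without shRING1B replicate 1 and 0.25 without shRING1B replicate 2.

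STC2, also measured by 1 probe set, was highest with the EZH2 hairpin. Its level was 9.39 and 9.2 on the shRING1B arrays, 10.24 and 10.22 on the shEZH2 arrays, 8.87 and 8.57 on the shBMI1 arrays, and 8.98 and 8.51 on the shGFP arrays. Both shEZH2 arrays lay above all others, both shRING1B arrays lay between them and the rest, and the shBMI1 and shGFP arrays overlapped. The means were 10.23 ± 0.01 with shEZH2, 9.30 ± 0.13 with shRING1B, 8.72 ± 0.22 with shBMI1 and 8.75 ± 0.33 with shGFP (SD, n = 2 each). The step from shEZH2 down to shRING1B was 0.93 and that from shRING1B down to shGFP was 0.55. The second of these is close to the gap of 0.47 between the 2 shGFP arrays, and 3.33% of all genes had a larger gap between those arrays.

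Against shGFP, STC2 was 1.48 ± 0.17 log2 units higher with shEZH2 (SE, n = 2 each), or 2.79-fold, and 0.55 ± 0.17 higher with shRING1B, or 1.47-fold. With shBMI1 the difference was -0.03 ± 0.17. Its place by size of increase was 4 with shEZH2, 84 with shRING1B and 8364 with shBMI1. The shRING1B value was 0.79 without shGFP replicate 1 and 0.32 without shGFP replicate 2. Leaving out the same arrays gave 1.72 and 1.25 with shEZH2, and 0.21 and -0.26 with shBMI1, so that the sign with shBMI1 turned. In comparisons that do not use shGFP, STC2 was lower with shRING1B than with shEZH2 (log2 difference -0.93 ± 0.17), 0.58 ± 0.17 higher with shRING1B than with shBMI1, and 1.51 ± 0.17 higher with shEZH2 than with shBMI1.

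The 2 genes therefore did not each follow a single hairpin. Both were higher with shRING1B and with shEZH2 than with shBMI1 or shGFP. STC2 stood higher with shEZH2 than with shRING1B. STC1 was about level with these 2 hairpins, since its difference was no larger than the gap of 0.17 between the 2 shRING1B arrays. With shRING1B relative to shEZH2, the log2 difference was 0.17 for STC1 and -0.93 for STC2. Leaving out each array in turn gave 0.08 to 0.25 for STC1 and -1.03 to -0.84 for STC2. Over the 8 arrays the levels of STC1 and STC2 correlated at r = 0.70, and over the 6 arrays without shEZH2 at r = 0.78. These points share hairpins and replicates, and r is given as a description only.

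**Figure D2:**
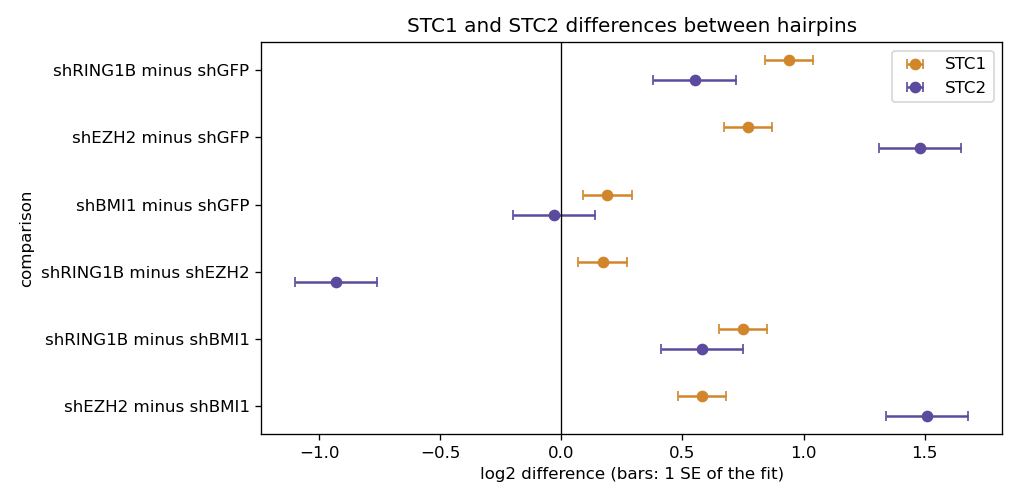
Log2 differences of STC1 (orange) and STC2 (purple) on the horizontal axis for the 6 pairs of hairpins on the vertical axis, with bars of 1 SE of the fit over all genes and 2 arrays per hairpin. The 2 genes part most between shRING1B and shEZH2, at 0.17 for STC1 and -0.93 for STC2, and both lie near 0 for shBMI1 minus shGFP, at 0.19 and -0.03.

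Because STC2 is a known ATF4 target, the stretch upstream of its start is shown beside that of ASNS, the asparagine synthetase gene, whose promoter is known for an ATF4 element. Of the 2 stanniocalcin genes, 1 (STC2) had a row in the RefSeq promoter table (build GRCh38.p14). The 250 bases before the start are printed 5′ to 3′ for chr5:173328415-173328664 (minus strand, STC2) and chr7:97872409-97872658 (minus strand, ASNS). Capitals mark matches, on either strand, to TGATGNAA (the composite element of ATF4 and C/EBP factors), TGACGTCA (the cAMP response element), ACGTG and GCGTG (both cores of hypoxia response elements) or CCAAT (the CCAAT box).
STC2: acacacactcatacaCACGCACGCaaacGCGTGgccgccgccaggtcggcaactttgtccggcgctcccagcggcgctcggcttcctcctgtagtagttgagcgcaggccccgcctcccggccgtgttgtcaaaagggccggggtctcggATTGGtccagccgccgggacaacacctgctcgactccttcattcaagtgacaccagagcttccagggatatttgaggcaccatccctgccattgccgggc
ASNS: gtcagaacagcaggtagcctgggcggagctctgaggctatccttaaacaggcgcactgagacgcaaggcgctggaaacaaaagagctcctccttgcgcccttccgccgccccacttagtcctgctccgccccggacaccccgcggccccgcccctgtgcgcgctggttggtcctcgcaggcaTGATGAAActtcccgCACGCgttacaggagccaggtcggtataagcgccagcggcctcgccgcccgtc
The ASNS stretch held TGATGNAA, as TGATGAAA, starting 68 bases upstream, and a GCGTG match on the other strand 53 bases upstream. The STC2 stretch held 0 matches to TGATGNAA, to TGACGTCA and to ACGTG. It held GCGTG on the other strand at 235 and 231 bases upstream, which share 1 base, and as printed at 222 bases upstream. A CCAAT match on the other strand lay 100 bases upstream. Among 35116 promoters of the table, 3.14% held TGATGNAA, 1.65% TGACGTCA, 18.5% ACGTG, 32.2% GCGTG and 32% CCAAT. Of 29 ATF4 list genes with a promoter row, 7 held TGATGNAA. ASNS was among these 7. PSAT1, CTH, TRIB3, VLDLR, PCK2, PHGDH and SESN2, which like ASNS passed with shEZH2 (below), were not. A match here describes letters only, and no match says only that these letters are not in this window.

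Genes of the ATF4 and amino acid stress response rose with shEZH2, the hairpin with which STC2 was highest. Of 37 genes listed without STC2, 21 were measured, and 8 of them rose with shEZH2 while 0 fell (limma, Benjamini-Hochberg adjusted p under 0.05 over all genes). Over all 14884 genes, 0.732% passed in either direction and 0.558% were higher. The list's median log2 difference was 0.53, against -0.01 over all genes, and 19 of 21 values were positive. PSAT1, of serine synthesis, was at 11.86 and 11.84 on the shEZH2 arrays, against 10.71 and 10.24 on the shGFP arrays, and rose by 1.38 ± 0.16 log2 units (SE; adjusted p = 0.0119). CTH, which makes cysteine from cystathionine, was at 9.87 and 9.74 with shEZH2 and at 8.49 and 8.39 with shGFP, and rose by 1.36 ± 0.09 (adjusted p = 0.00326). Both genes had shEZH2 arrays above every other array.

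ASNS was at 8.89 and 9.03 with shEZH2 and at 7.73 and 7.65 with shGFP, and rose by 1.27 ± 0.13 (limma adjusted p = 0.00868). TRIB3, a pseudokinase that feeds back on ATF4, rose by 1.05 ± 0.13, the lipoprotein receptor VLDLR by 0.98 ± 0.16 and PCK2, the mitochondrial phosphoenolpyruvate carboxykinase, by 0.93 ± 0.10. PHGDH and SESN2, named to complete the count, also passed. ATF4 mRNA itself was 0.17 ± 0.08 higher and did not pass (adjusted p = 0.336). The count of 8 was 2 without shGFP replicate 1, 1 without shGFP replicate 2, 0 without either shEZH2 array and 3 with only the 4 arrays compared.

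With shRING1B, 0 of the 21 ATF4 list genes passed, in a comparison where limma called 0 genes in all (0%, with 1280 at an unadjusted p under 0.05). Of the list, 4 members had an unadjusted p under 0.05, and the median was 0.06, against 0 over all genes. The largest values were those of TRIB3 at 0.55 ± 0.13, the secreted stress cytokine GDF15 at 0.49 ± 0.17 and DDIT3, which encodes the factor CHOP, at 0.37 ± 0.12 (adjusted p = 0.346, 0.475 and 0.432). TRIB3 was at 9.33 and 8.97 on the shRING1B arrays, between 9.73 and 9.58 on the shEZH2 arrays and 8.67 and 8.54 on the shGFP arrays, the same order as STC2. ASNS and PSAT1 were at 0.06 ± 0.13 and 0.01 ± 0.16 with shRING1B, where STC2 was at 0.55. With shBMI1, 0 of 21 passed, the median was -0.05 and 5 values were positive, in a comparison where limma called 0 genes (0%, with 830 at an unadjusted p under 0.05).

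**Figure D3:**
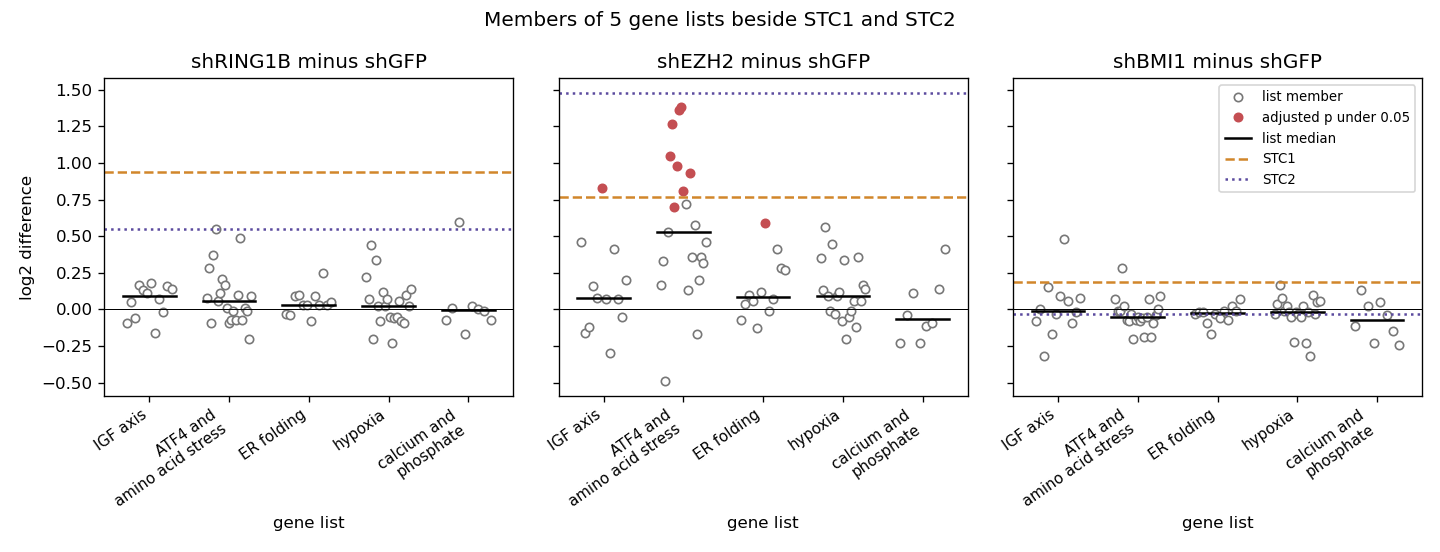
Log2 differences against shGFP on the vertical axis for the measured members of 5 gene lists on the horizontal axis, in 3 panels for shRING1B, shEZH2 and shBMI1. Filled points passed limma's adjusted threshold, short lines are list medians, and the dashed and dotted lines are STC1 and STC2. With shEZH2, 8 of 21 ATF4 list genes are filled and STC2 lies above every list member at 1.48. With shRING1B no point is filled and STC1, at 0.94, lies above every list member.

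The likeness of the stanniocalcins to the 21 measured ATF4 list genes was taken with and without the shEZH2 arrays. Over the 8 arrays r with STC2 was positive for 19 genes, with a median of 0.88, and ran between -0.95 for the transcription factor ATF5 and 0.95 for TRIB3. Over the 6 arrays without shEZH2 it was positive for 16, with a median of 0.51. Called members spread widely there, at 0.85 for TRIB3, 0.75 for CTH, 0.62 for PSAT1, 0.55 for ASNS and -0.05 for both PHGDH and PCK2. With STC1 the median was 0.50 over the 8 arrays and 0.39 over the 6. The r with STC2 was higher than that with STC1 for 19 of 21 genes over the 8 arrays, and for 13 of 21 over the 6. TRIB3 turned round, with r = 0.82 with STC1 and 0.95 with STC2 over the 8 arrays, but 0.94 with STC1 and 0.85 with STC2 over the 6. ATF3, a stress-induced transcription factor, had r = 0.93 with STC1 and 0.83 with STC2 over the 8 arrays. Genes of other lists, described below, also reached such values. Over the 8 arrays r with STC2 was 0.93 for EIF2AK3, 0.92 for IGF2R and 0.87 for XBP1, but -0.69 for LDHA. Over the 6 it was 0.89 for HYOU1 and 0.86 for VEGFA, and r with STC1 was 0.97 for EIF2AK3 and 0.96 for ADM. All of these r values are descriptions over arrays that share hairpins. ATF5, ATF3 and the genes of other lists were picked here after their values were seen.

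Among measured genes of the endoplasmic reticulum stress response outside the ATF4 list, a single gene passed. A list of 23 genes covered folding in the endoplasmic reticulum with its stress sensors and factors, called folding genes here. HSPA5, HSP90B1, DNAJB9, HERPUD1 and EDEM1 of this list were not measured, so their response could not be read. Of the 23, 12 were measured and 1 passed with shEZH2, where 0.732% of all genes did. It was the stress transcription factor XBP1, which rose by 0.59 ± 0.10 (adjusted p = 0.0435). Its level was 9.53 and 9.57 with shEZH2, against 9.0 and 8.92 with shGFP. EIF2AK3, the stress kinase PERK that acts upstream of ATF4, was at 0.41 ± 0.08, and SEL1L, of protein disposal from that compartment, was at 0.28 ± 0.10, without passing (adjusted p = 0.0853 and 0.225). The list's median was 0.08 with shEZH2, 0.03 with shRING1B and -0.02 with shBMI1. With shRING1B 0 of 12 passed, and EIF2AK3 was at 0.25 ± 0.08, SDF2L1 at 0.10 ± 0.13 and the chaperone HYOU1 at 0.09 ± 0.09. The XBP1 call was lost without any 1 of the shEZH2, shBMI1 or shGFP arrays, with only the 4 arrays compared and with a replicate block.

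The measured hypoxia genes, from the group whose induction both stanniocalcins are known to share, did not pass as single genes. CA9, SLC2A1, PDK1, P4HA1 and PFKFB3 of that list were not measured. Of 31 listed, 20 were measured and 0 passed with shRING1B, shEZH2 or shBMI1 by limma, with 3, 5 and 0 members at an unadjusted p under 0.05. Over all genes that share was 8.6%, 16.2% and 5.58%. The medians were 0.02, 0.09 and -0.02 in that order. VEGFA, the angiogenic growth factor, was at 9.58 and 9.21 with shRING1B, at 9.57 and 9.47 with shEZH2, and at 9.11 and 8.81 with shGFP. Its arrays with shRING1B or shEZH2 all lay above the shGFP arrays. The differences were 0.44 ± 0.15 with shRING1B (adjusted p = 0.44) and 0.56 ± 0.15 with shEZH2 (adjusted p = 0.122). With shRING1B the vasoactive peptide gene ADM was at 0.34 ± 0.09 and the lactate dehydrogenase gene LDHA at -0.23 ± 0.08. With shEZH2 NDRG1 was at 0.45 ± 0.11 and the collagen cross-linking enzyme LOX at 0.36 ± 0.16. None of these 4 passed.

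In the IGF axis, on which stanniocalcins act through PAPP-A, 12 of 15 listed genes were measured and 1 passed, with shEZH2, where 0.732% of all genes passed. PAPPA itself was not among them. IGFBP6, a binding protein that prefers IGF2, was at 9.09 and 8.95 with shEZH2, against 8.07 and 8.30 with shGFP, and rose by 0.83 ± 0.12 (adjusted p = 0.0272). Its shEZH2 arrays lay above all other arrays, and its value with shRING1B was 0.11 ± 0.12. This call was lost without any 1 of the shEZH2, shRING1B or shGFP arrays and with only the 4 arrays compared. PAPPA2, a protease related to PAPP-A, was at 0.46 ± 0.12 with shEZH2 and IGF2R, the receptor that clears IGF2, at 0.41 ± 0.10, without passing (adjusted p = 0.117 and 0.11). IGFBP4, the best known substrate of PAPP-A, was at 0.17 ± 0.12 with shRING1B and at 0.16 ± 0.12 with shEZH2. The growth factor gene IGF1 was at 0.18 ± 0.11 and the receptor gene IGF1R at -0.16 ± 0.13 with shRING1B. The list's medians were 0.09 with shRING1B, 0.08 with shEZH2 and -0.01 with shBMI1, and 0 of 12 genes passed with shRING1B or shBMI1, where 0% of all genes did.

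Of 24 genes of calcium and phosphate handling, the first known role of stanniocalcin, 8 were measured and 0 passed with any of the 3 hairpins by limma (1, 2 and 1 members at an unadjusted p under 0.05 with shRING1B, shEZH2 and shBMI1, against 8.6%, 16.2% and 5.58% of all genes). The calcium-binding protein gene CALB2 was at 5.95 and 5.74 with shRING1B, against 5.16 and 5.33 with shGFP, a difference of 0.60 ± 0.13 that did not pass (adjusted p = 0.318). The calcium channel gene ORAI3 was at -0.07 ± 0.11 with shRING1B and 0.41 ± 0.11 with shEZH2. STIM1, the calcium store sensor to which STC2 is known to bind, was at -0.17 ± 0.09 and -0.23 ± 0.09. The calcium-sensing receptor gene CASR was at -0.23 ± 0.12 with shEZH2. The list's medians were -0.01 with shRING1B, -0.07 with shEZH2 and -0.08 with shBMI1.

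STC1 lies on chromosome 8 and STC2 on chromosome 5, and the 3 nearest measured protein-coding genes on each side of either were set beside them. Around STC1 these were LOXL2, ENTPD4, NKX2-6, ADAM28, DOCK5 and GNRH1. LOXL2, a lysyl oxidase that cross-links collagen, rose with shEZH2 by 0.67 ± 0.11 (limma adjusted p = 0.0479), and this call was lost whichever array was left out. The other 5 did not pass, with values between -0.17 and 0.28 with shEZH2. With shRING1B the 6 lay between -0.32 (DOCK5) and 0.22 (LOXL2), where STC1 was at 0.94.

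Around STC2 the neighbours were CREBRF, BNIP1, NKX2-5, BOD1, CPEB4 and C5orf47, and 0 of 6 passed in any comparison with shGFP by limma. CREBRF, a regulator of the stress factor CREB3, was at 0.49 ± 0.11 with shEZH2 (adjusted p = 0.0928), and the other 5 lay between -0.14 and 0.03, where STC2 was at 1.48. With shRING1B all 6 lay between 0.01 and 0.20. The genes nearest to STC1 and STC2 among those measured, NKX2-6 and NKX2-5, are homeobox genes and were at -0.07 ± 0.14 and 0.03 ± 0.09 with shEZH2.

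**Figure D4:**
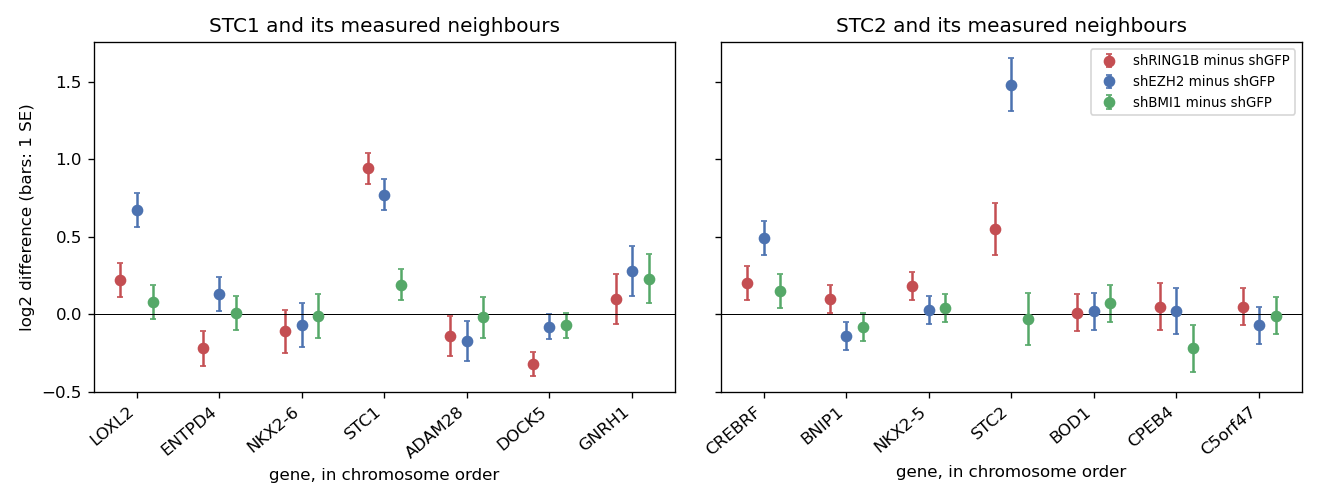
Log2 differences against shGFP on the vertical axis (bars, 1 SE) for STC1 (left) and STC2 (right) and their 3 nearest measured protein-coding genes on each side, in chromosome order on the horizontal axis, for shRING1B, shEZH2 and shBMI1. STC1 stands at 0.94 and 0.77 with shRING1B and shEZH2 among neighbours between -0.32 and 0.67. STC2 stands at 1.48 with shEZH2 among neighbours between -0.14 and 0.49.

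The genes with profiles most like those of STC1 and STC2 were taken by Pearson r of log2 levels over the 8 arrays, among 673 protein-coding genes whose group means spanned at least 0.5. For STC1 they were the Notch ligand DLL4 (r = 0.976), the cytokine LIF (0.962), the growth factor BMP2 (0.962), the protease inhibitor TFPI2 (0.950) and ZP4, a glycoprotein of the egg coat (0.942). DLL4 was 0.81 higher with shRING1B and 0.52 higher with shEZH2 than with shGFP, and BMP2 was 0.76 and 0.79 higher. All 5 lay higher with shRING1B and with shEZH2 than with shGFP, at 0.60 to 1.08 and 0.35 to 0.79. Since they were picked for this likeness, these differences carry no test.

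For STC2 the most alike were the homeobox gene MKX (r = 0.991), the acyl-CoA synthetase ACSL1 (0.985), ATXN1 (0.983), the metalloreductase STEAP4 (0.978) and EBI3, a subunit of heterodimeric interleukins (0.976). MKX was at 7.67 and 7.62 with shEZH2, at 7.08 and 6.92 with shRING1B, and at 6.58 and 6.60 with shBMI1. The 5 genes were 0.60 to 1.35 higher with shEZH2 and 0.18 to 0.37 higher with shRING1B than with shGFP, again as a description. No gene was among the 5 of both, and no ATF4 list gene was among either 5.

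**Figure D5:**
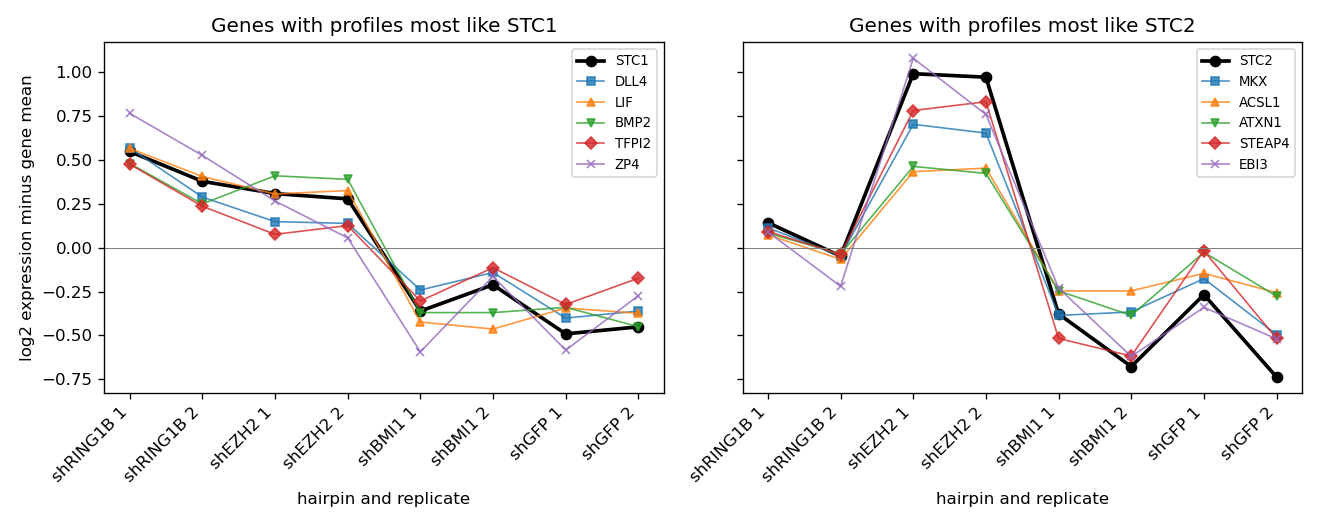
Levels over the 8 arrays on the horizontal axis, as log2 expression minus each gene's mean on the vertical axis, for STC1 with its 5 most alike genes (left) and STC2 with its 5 (right). The STC1 group is high on all 4 arrays with shRING1B or shEZH2, and the STC2 group peaks on the 2 shEZH2 arrays, with MKX at r = 0.991.

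Of 18 measured markers of other cell types, 2 passed with shEZH2, where 0.732% of all genes passed. With shRING1B or shBMI1 0 passed, where 0% of all genes did. Of 10 fibroblast markers, 3 were measured, and DCN, which encodes decorin, rose with shEZH2 by 0.93 ± 0.10 (limma adjusted p = 0.0109), while LUM was at 0.89 ± 0.23 and THY1 at -0.15 ± 0.15. The mean log2 level of the 3 lay between 5.92 and 5.99 with shRING1B, 6.26 and 6.47 with shEZH2, 5.96 and 6.17 with shBMI1, and 5.73 and 5.88 with shGFP. Of 6 measured melanocyte markers out of 7, MLANA rose by 0.64 ± 0.11 (adjusted p = 0.046), at 4.80 and 4.85 with shEZH2 and 4.18 and 4.19 with shGFP. Without either shEZH2 array and without either shGFP array, neither DCN nor MLANA passed. The MLANA call was also lost in some of the fits without a single shRING1B or shBMI1 array. In the settings of the fit other than leaving out a single array, DCN passed in 8 of 8 and MLANA in 3 of 7. The other 5 melanocyte markers lay between -0.15 and 0.20, and the median of the 6 was 0. The mean of these 6 was between 5.28 and 5.39 with shRING1B, 5.36 and 5.43 with shEZH2, 5.23 and 5.35 with shBMI1, and 5.27 and 5.30 with shGFP. Of 5 leukocyte markers measured out of 11 and 4 endothelial markers out of 6, 0 passed with shEZH2, with medians of 0.16 and -0.02. The leukocyte mean lay between 6.64 and 6.85 with shRING1B, 6.93 and 6.96 with shEZH2, 6.62 and 6.76 with shBMI1, and 6.65 and 6.86 with shGFP. The endothelial mean lay between 6.02 and 6.11 with shRING1B, 5.92 and 6.0 with shEZH2, 5.99 and 6.22 with shBMI1, and 5.92 and 5.95 with shGFP. The endothelial marker KDR was at 0.61 ± 0.26 with shRING1B and 0.54 ± 0.26 with shBMI1, without passing. With each of these hairpins 2 of the 4 endothelial values were positive. RMA gives no zero and no detection call, so absence of a marker could not be read, and the part of these cells in the STC1 and STC2 values was not tested.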

How the data were processed

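The authors deposited 1 log2 value per probe set and array. The submitters' processing notes name RMA and limma. The genome build, tool versions and probe set definitions were not given in the sources used here. Because RMA gives every array the same distribution of probe signals, a change common to most genes is hidden, and differences of dim genes come out too small. Of 53617 probe sets, 16098 had 1 gene symbol in the platform annotation, updated through RefSeq gene identifiers, and 37519 were unnamed and left out. The probe set with the highest mean over all arrays stood for a gene.

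Group means of all 8 arrays were fitted in limma 3.58.1 (R 4.3.3; 4 residual degrees of freedom) and Benjamini-Hochberg adjustment over all genes within a comparison. The same fit was also run on simulated data with independent noise for each array. Those data held no shared culture or batch effect, so that run cannot vouch for the calls here. An exact permutation test of 2 arrays against 2 cannot go below p = 0.333. The number of arrays limits the precision.

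Genes named are STC1, STC2, the targeted genes, up to 6 called members of each list with the largest change, the 3 members of each list with the largest change with shRING1B and with shEZH2, chromosome neighbours and the 5 most alike genes. PHGDH, SESN2, ATF3, ATF4, ATF5 and single cell type markers fall outside this rule and were named after their values were seen. The members and lists were chosen with earlier results of these data known.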

Additional observations from a re-analysis of the deposited data

How the results depend on the processing

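The STC1 and STC2 differences were recomputed as 102 values under another normalization, probe set rule, filter, variance model, choice of arrays or a replicate block. All moved by less than the spread between replicates. Only quantile normalization and median centring could move them. The other settings keep the same group means, and each of these genes has 1 probe set, so their unchanged values carry no information. A replicate block cannot change a difference here, since every hairpin has both replicate numbers. The shEZH2 differences from shGFP thus stayed at 0.77 for STC1 and 1.48 for STC2. The SE could change, and that of STC2 went from 0.17 to 0.12. No label ties equal replicate numbers to a batch, and the changes between replicates 1 and 2 correlated between hairpins at 0 to 0.25. The block gave 0 called folding genes with shEZH2, against 1 without it. Restricting the fit to protein-coding genes was chosen after seeing the data. Leaving out the shEZH2 arrays gives no shEZH2 comparison, and IGF1, PAPPA2, VLDLR, CALB2 and MLANA have no value under the filter on dim genes.

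Leaving out each array in turn gave STC1 differences of 0.85 to 1.02 for shRING1B minus shGFP, 0.08 to 0.25 for shRING1B minus shEZH2 and 0.67 to 0.83 for shRING1B minus shBMI1. For STC2 it gave 0.32 to 0.79 for shRING1B minus shGFP, 1.25 to 1.72 for shEZH2 minus shGFP and -0.26 to 0.21 for shBMI1 minus shGFP. The number of genes called with shEZH2 (109) was 0 to 91, that of ATF4 list genes 0 to 8, and those of IGF axis and of folding genes 0 to 1 each. With shRING1B, SDF2L1 was at -0.04 to 0.24 and ORAI3 at -0.17 to 0.03, so that both signs turned.

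With shRING1B, 0 called genes became 2 after quantile normalization, 36 with trended and robust variances, 11 when the dimmest 30% of genes were left out and 9 among protein-coding genes. With shEZH2 the count was 39 with only the 4 arrays compared, 409 without the dimmest genes, 648 with trended and robust variances and 169 among protein-coding genes. With only the 4 arrays compared, 3 ATF4 list genes, 0 IGF axis genes and 0 folding genes passed. Without the dimmest genes 2 IGF axis and 2 folding genes passed. With trended and robust variances 13 ATF4 list, 2 IGF axis, 2 folding, 4 hypoxia and 1 calcium handling genes passed. The cause of these shifts was not tested. Of 250 recomputed list medians, 221 moved by less than the spread between replicates and 29 by more. Of medians larger than that spread, 0 changed sign. Smaller medians did change sign. Without shRING1B replicate 1, the shRING1B median of the ATF4 list went from 0.06 to -0.05 and that of the folding list from 0.03 to -0.01. RMA values carry no background call, so how far dim signal limits these genes could not be read.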
